A study of Mus musculus with 6 samples.

Results

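This account covers the normal condylar cartilage of the mouse jaw, as read from the 3 control libraries of a series of 6. The libraries were chosen by their titles, which carry the label fl/fl, the usual notation for a gene flanked by loxP sites, and by a genotype entry that calls them control. The series deletes the gene for Indian hedgehog (Ihh) in neural crest cells of the face in its other 3 libraries, which were not analysed here. Cartilage was cut out under a microscope, and full-length cDNA was made from its total RNA. Age and sex are missing from the labels, as is whether a library holds 1 mouse or a pool. Biological and technical parts of the spread between controls therefore cannot be told apart. Each library lists an FPKM value, the fragments of a transcript scaled to its length and to the size of the library, for 24346 gene symbols. Small RNA symbols, those starting Mir, Snor, Scarna or Rnu, were left out, and the other 23060 symbols were ranked by their mean. In what follows, 3 values in a row are controls 1, 2 and 3, and ± is the SD over these 3 libraries.

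The mandibular condyle is the upper end of the lower jaw, where it meets the skull at the temporomandibular joint. Its cartilage is a growth cartilage made of layers. A fibrous layer lies at the joint surface and grades into periosteum, and beneath it dividing progenitors turn into chondrocytes that enlarge, mineralize their matrix and give way to bone. The cartilage comes from cranial neural crest and is a secondary cartilage, so it keeps more type I collagen than the growth plates of limbs. The lateral pterygoid muscle inserts beside it, and marrow, vessels and bone-resorbing osteoclasts lie under it.

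The libraries were first checked for differences that the shared label does not explain. Scaling totals read from the spacing of low FPKM values were 0.993 for control 2 and 1.331 for control 3, relative to control 1. The absolute number of fragments was not known. The median gene at 10 FPKM or more was 0.17 log2 units higher in control 3 than in control 1 and 0.15 higher than in control 2. After scaling to equal sums these shifts were -0.021 and -0.030. Xist, which is transcribed from the inactive X chromosome of females, read 29.5, 29.2 and 0.608 FPKM. The Y-linked genes Eif2s3y (0.890, 0 and 42.1 FPKM) and Ddx3y (0.314, 0 and 23.7 FPKM) showed the reverse. Control 3 thus stood apart from controls 1 and 2 in sex-linked genes and came from other mice than they did. Control 1 stood apart in enamel genes, with Amelx at 431, 15.8 and 4.35 FPKM. Background was read from olfactory receptor genes, which most tissues other than nasal epithelium keep silent. Of 1120 such genes, 39.2% to 41.3% read 1 FPKM or more in a library, and their 90th percentile lay between 6.49 and 8.56 FPKM. A level of 10 FPKM was therefore used as the mark for a gene that stood above background, and 6902 of the 23060 ranked genes (29.9%) had a mean that high. The median over all ranked genes was 4.61 FPKM. Counts and medians of the gene lists below are to be read against this share and this median.

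The highest ranks were held by matrix genes, muscle genes, globins and genes of general metabolism. Sparc, which encodes osteonectin, a collagen-binding protein of bone and fibrous matrix, read 2856, 2892 and 3700.5 FPKM and stood behind 2 symbols only. Col1a1 (2089 ± 376 FPKM) and Col1a2 (2004 ± 337 FPKM), the chains of type I collagen, and Col3a1 (1351 ± 327 FPKM), the chain of type III collagen, were also among the 30 highest. Spp1, the gene for osteopontin, an acidic protein of mineralizing matrix, read 2266, 3419 and 912 FPKM. It was lowest in control 3 and highest in control 2. Acta1, the actin of skeletal muscle fibres, read 2453, 1396 and 3038 FPKM, and here control 3 was highest and control 2 lowest. Myl1 (1646 ± 782 FPKM) and Tnnc2 (1509 ± 707 FPKM), parts of the contractile filaments of fast muscle, followed the same order of libraries as Acta1. Hba-a2 and Hbb-bs, globin genes of red cells, had means of 1904 and 1333 FPKM with SDs nearly as large.

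General metabolism was represented by Ldha (lactate dehydrogenase, 1376 ± 125 FPKM), Eef1a1 (translation elongation, 1338 ± 113 FPKM), Ppia (cyclophilin A, 1829 ± 123 FPKM) and Ftl1 (ferritin light chain, 1730.0 ± 194 FPKM). These genes varied little between the controls. Of 84 ribosomal protein genes, 82 reached 10 FPKM and 24 stood among the 100 highest, led by Rpl41 at 1960.3 ± 219.6 FPKM. The 100 highest genes together held 23.8%, 23.4% and 24.8% of the summed FPKM of ranked genes in the 3 libraries. Lgals1 (galectin 1), Anxa2 (annexin A2), Itm2a (a membrane protein of chondrogenic cells), Crip1, Actg1 and Usmg5 filled further places, with means from 1114 to 1493 FPKM. Itm2a read 1030.3, 1098 and 1282 FPKM.

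Several of the highest ranks belonged to symbols that no layer of this tissue is known for. Lars2, the leucyl-tRNA synthetase of mitochondria, was first at 7356, 9197 and 11629 FPKM. Mrgpra6, a receptor gene of sensory neurons, was next at 5613, 5504 and 4381 FPKM. Olfr856-ps1, an olfactory receptor pseudogene, read 2368, 2106 and 1648 FPKM. The ribosomal RNA symbol Rn45s had a mean of 2569 ± 167 FPKM. The noncoding or little-studied symbols Gm17644, A630089N07Rik, 4930470H14Rik, Zfp488 and A130077B15Rik had means from 1369 to 2339 FPKM. Gm17644 (2496, 2512 and 2009.9 FPKM) and Zfp488 (1589.8, 1531 and 1162 FPKM) were lowest in control 3, like Mrgpra6 and Olfr856-ps1. FPKM equivalent to 1 fragment was 0.751 times as large in control 3 as in control 1, and its part in this order was not tested.

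**Figure D1:**
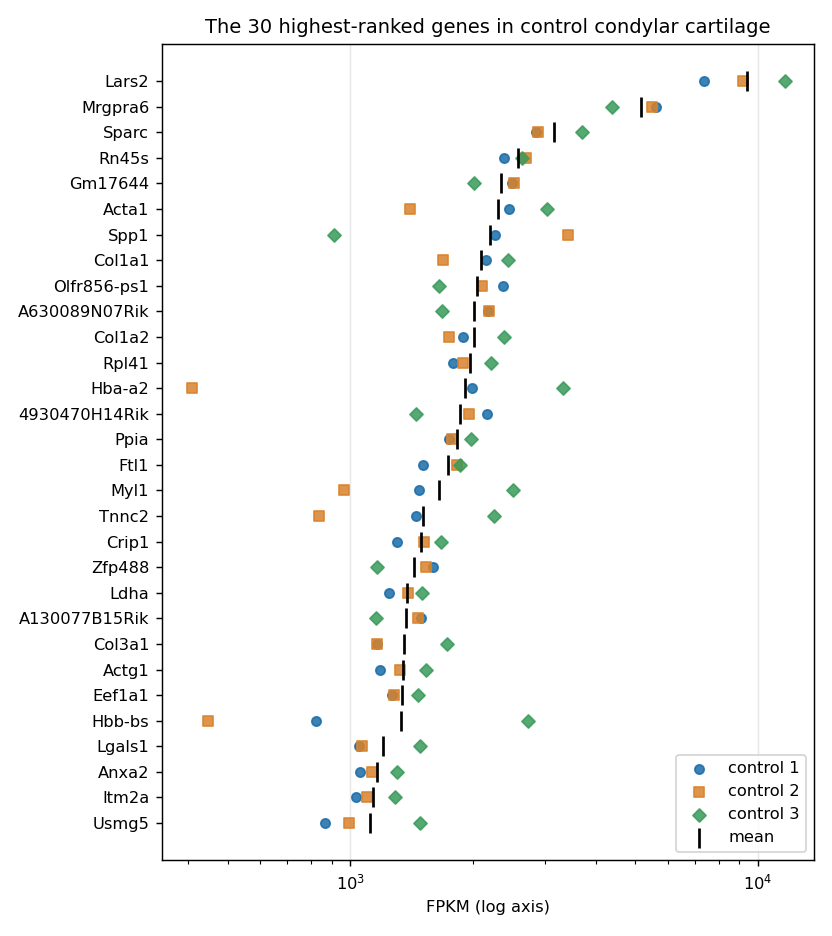
Each row is 1 of the 30 genes with the highest mean, the horizontal axis is FPKM on a log scale, symbols are the 3 controls and the black tick is their mean. Most genes have 3 close symbols, while Spp1, Acta1, Hba-a2, Hbb-bs, Myl1 and Tnnc2 are drawn apart, with control 2 and control 3 at opposite ends.

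The 6 layer markers differed widely in level. Col1a1, a gene of the fibrous layer that the osteoblast and tendon lists share, read 2152, 1686 and 2429 FPKM. Postn, which encodes periostin of periosteum and fibrous tissue, read 834, 978 and 1068 FPKM. Col2a1, the collagen of cartilage matrix, read 105, 88.5 and 159 FPKM. Acan, the core protein of aggrecan, read 27.2, 27.2 and 33.1 FPKM. All 4 genes stood far above background in each library, and the controls differed by less than 2-fold. Prg4, the lubricin of the joint surface, was near background at 12.4, 9.69 and 14.1 FPKM. Col10a1, the collagen of hypertrophic chondrocytes, read 78.1, 75.0 and 14.7 FPKM. Controls 1 and 2 were close to each other in Col10a1 and control 3 was 5.32-fold below the highest. Its mean was 55.9 ± 35.8 FPKM with all libraries and 76.6 FPKM without control 3.

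In FPKM, Col1a1 was 15.3 to 20.4 times as high as Col2a1, a ratio of 18.3 ± 2.66. The ratio of Col2a1 to Col10a1 was 1.35, 1.18 and 10.8. In bulk tissue such a ratio cannot tell fewer cells of a type from less RNA per cell. Col1a1 is also a gene of bone and tendon, so its ratio to Col2a1 is not that of the fibrous layer alone. Exons of Col10a1 overlap those of Nt5dc1 on the opposite strand, and exons of Prg4 overlap those of Tpr. The libraries did not keep the strand, so reads of these pairs cannot be told apart within the overlaps. Such overlaps touched 66 of the 290 named genes that matched the annotation. Nt5dc1 itself read 7.77, 4.75 and 5.21 FPKM, and Tpr read 11.3, 13.4 and 13.3 FPKM, close to the level of Prg4.

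**Figure D2:**
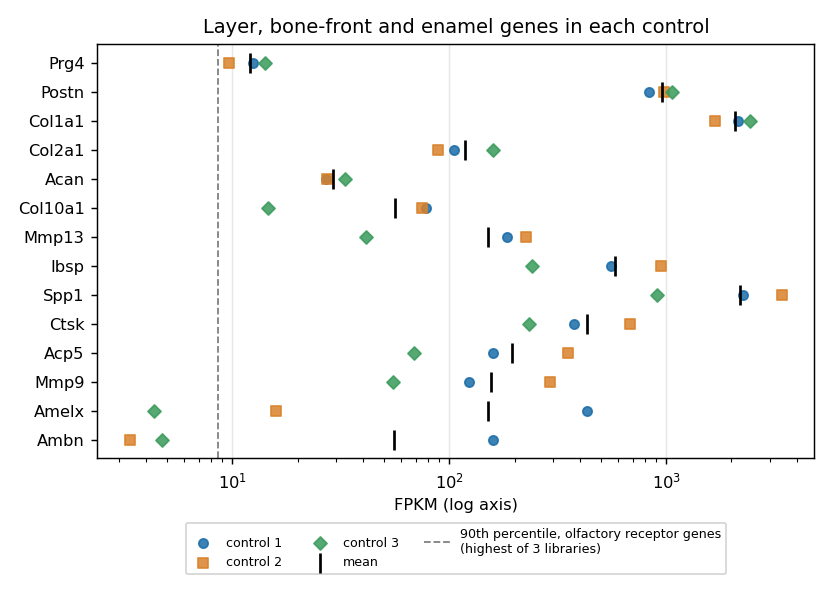
Rows are the 6 layer markers, 6 genes of the mineralizing and resorbing front and 2 enamel genes, the horizontal axis is FPKM on a log scale, symbols are the 3 controls, ticks are means and the dashed line is the background level of 8.56 FPKM. Col1a1, Postn and Acan have close symbols, control 3 lies left in Col10a1 to Mmp9, and Amelx and Ambn are high in control 1 alone.

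Genes of the fibrous layer and periosteum formed the most abundant of the zone lists. Of 20 members, 19 reached 10 FPKM, against 29.9% of all genes, and their median was 240.4 FPKM, against 4.61 FPKM over all genes. After Sparc, the type I and III collagens and Postn came Dcn (decorin, which binds collagen fibrils) at 591, 579 and 844 FPKM. In values as deposited, control 3 was highest in Dcn and in all 19 members above background, against 51.9% of all genes at that level. After scaling to equal sums, 1 of the 19 had control 3 lowest, and the count with control 3 highest was not taken. The summed level of the list was 11495, 11220.0 and 14901 FPKM, and this order of the libraries did not change with either scaling. Prg4, Cilp, Thbs4 and other genes of the joint surface and synovial lining formed a list of 15, of which 6 reached 10 FPKM, with a median of 5.84 FPKM. The highest of them was Thbs4 (thrombospondin 4, also a tendon gene) at 60.1 ± 24.5 FPKM, followed by Cilp (22.6 ± 7.33 FPKM), a matrix protein of the middle zone of cartilage. Clu (clusterin) and Abi3bp read 17.7 ± 6.82 and 13.3 ± 5.52 FPKM, and Creb5, a factor that drives Prg4 in joint cartilage, 12.3 ± 1.72 FPKM. Gdf5 (3.04 ± 1.42 FPKM) and Erg (1.36 ± 0.794 FPKM), which mark the forming joint, were within background.

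The progenitor list had 12 of 16 members above background and a median of 29.0 FPKM. Cd34 read 70.5, 79.5 and 103 FPKM and Dpt (dermatopontin) read 54.1, 60.3 and 105 FPKM, both highest in control 3. Both are shared with other fibroblasts, and Cd34 with vessels. Sox9, the factor that commits cells to cartilage, read 37.6, 43.0 and 49.9 FPKM, and Runx2, which commits them to bone, read 28.0, 27.6 and 30.6 FPKM. The paired-type homeobox genes Prrx1 (42.2 ± 7.83 FPKM) and Prrx2 (32.9 ± 3.93 FPKM) and the growth-arrest gene Gas1 (40.2 ± 11.4 FPKM) lay at like levels. Msx1 (0.472 ± 0.117 FPKM) and Msx2 (2.23 ± 0.797 FPKM), factors of early facial mesenchyme, were within background. Ly6a, the stem cell antigen Sca-1, read 32.6, 24.3 and 55.6 FPKM.

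Chondrocyte matrix genes were present at moderate levels. Of 26 listed members, 18 reached 10 FPKM, with a median of 18.8 FPKM. Beside Col2a1, the collagens that join it in the cartilage fibril were Col11a1 (70.7 ± 6.72 FPKM), Col9a3 (42.1 ± 5.79 FPKM), Col9a1 (30.3 ± 9.52 FPKM), Col9a2 (25.4 ± 8.41 FPKM) and Col11a2 (19.5 ± 2.89 FPKM). Hapln1, the link protein that ties aggrecan to hyaluronan, read 66.7, 67.5 and 61.7 FPKM, and Prelp (51.0 ± 7.46 FPKM) followed it. Fmod (fibromodulin) read 285, 285 and 359 FPKM and is shared with the fibrous layer and tendon lists. The partners of Sox9 in cartilage, Sox5 and Sox6, had means of 12.9 ± 1.29 and 13.6 ± 1.76 FPKM. The summed list differed by 1.27-fold between the libraries.

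Among prehypertrophic genes, Panx3, a channel gene also of osteoblasts, read 144, 182 and 131 FPKM. Pth1r, the receptor for parathyroid hormone-related protein, read 112, 106 and 128 FPKM, and its exons overlap those of Myl3 on the opposite strand. Mef2c (37.6 ± 5.24 FPKM), Sp7 (osterix, 32.7 ± 3.13 FPKM) and Fgfr3 (22.1 ± 7.12 FPKM), a receptor that slows chondrocyte division, were above background too. In all, 9 of 13 members reached 10 FPKM and none of the 9 differed 2-fold between controls, against 11.2% of all genes at that level. Ihh itself, the secreted signal of this zone, was within background at 3.73, 2.51 and 3.74 FPKM.

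The hypertrophic list, with 13 of 17 members above background and a median of 37.6 FPKM, summed to 3534, 5168 and 1645 FPKM, a 3.14-fold range. Spp1 made up most of that sum. Mmp13, the collagenase that opens mineralized cartilage, read 185, 226 and 41.5 FPKM. Ibsp, bone sialoprotein, read 556, 944 and 241 FPKM. Control 3 was the lowest library for Mmp13, Ibsp, Spp1 and Col10a1, by 3.75-fold to 5.45-fold against the highest. In 7 of the 13 members above background control 3 was lowest. Over all genes at that level, 12.5% had control 2 over 1 over 3 and 10.2% had control 1 over 2 over 3. Control 3 is lowest in both orders, and after scaling to equal sums these shares were 21% and 16.7%. The other members above background moved less than Mmp13, Ibsp, Spp1 and Col10a1. S100a1 (75.2, 72.3 and 74.5 FPKM), Alpl, the alkaline phosphatase of mineralizing cells (73.6, 86.2 and 58.4 FPKM), and Vegfa (25.4 ± 3.30 FPKM) differed by less than 2-fold. So 4 of the 13 members above background varied at least 2-fold, against 11.2% of all genes at that level.

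Bone genes covered the whole range from matrix synthesis to resorption. Of 17 osteoblast genes, 14 reached 10 FPKM, with a median of 51.0 FPKM. After Spp1, Col1a1 and Ibsp, which the list shares with the lists above, Cthrc1 read 466, 550.2 and 551 FPKM. Omd (osteomodulin) read 235, 231 and 151 FPKM, and Ifitm5, a membrane protein of mineralizing osteoblasts, read 88.9, 147 and 56.3 FPKM. Both were lowest in control 3. Osteocalcin took another order. Bglap read 140.2, 38.2 and 95.4 FPKM and Bglap2 read 74.1, 21.3 and 57.7 FPKM, so control 2, the library with the most Spp1, had the least osteocalcin. Bglap and Bglap2 share 56.5% and 75.3% of their 30-base stretches, so their split is uncertain, while their sum was 214, 59.5 and 153 FPKM.

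Of 11 osteocyte genes, which mark cells buried in bone, 4 reached 10 FPKM, a share near the 29.9% of all genes, with a median of 8.57 FPKM. Sost, which encodes sclerostin of mature osteocytes, was listed at 0 in every control. Dmp1, a matrix phosphoprotein of osteocytes and mineralizing cartilage, read 51.8, 22.0 and 35.2 FPKM. Ackr3 (38.5 ± 6.12 FPKM), Pdpn (podoplanin, 21.7 ± 5.44 FPKM, also a lymphatic gene) and Tnfrsf11b (osteoprotegerin, 12.0 ± 2.12 FPKM) were the other members above background. Phex and Dkk1 lay at 8.74 ± 2.82 and 8.57 ± 1.96 FPKM.

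Osteoclast genes were abundant. Ctsk, the cathepsin that digests bone collagen, read 377, 681 and 232 FPKM. Acp5, the tartrate-resistant acid phosphatase, read 159, 354 and 68.6 FPKM, and Mmp9 (gelatinase B) read 123, 290.2 and 55.2 FPKM. Control 2 was highest and control 3 lowest in all 3 genes. Of 15 members 9 reached 10 FPKM, with a median of 13.3 FPKM, and 5 of these 9 had the order of control 2 over control 1 over control 3. Over all genes at that level, 12.5% had this order. After scaling to equal sums, 21% of all genes and 6 of the 9 osteoclast genes had it. Atp6v0d2, a subunit of the proton pump, read 14.6, 21.1 and 7.06 FPKM, and Dcstamp, needed for cell fusion, read 11.7, 17.5 and 10.6 FPKM. Nfatc1, the master factor of the lineage but also expressed elsewhere, did not follow (26.5, 26.4 and 33.4 FPKM), nor did the proton pump gene Tcirg1 (20.6 ± 2.81 FPKM). Car2, carbonic anhydrase of osteoclasts and red cells, read 83.1, 14.6 and 17.2 FPKM and was highest in control 1. Exons of Acp5 overlap those of 6530413G14Rik on the opposite strand.

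Spp1, Ibsp, Dmp1, Mepe and the enamel genes Amelx, Ambn, Enam, Amtn and Odam belong to the secretory calcium-binding phosphoproteins, a family that arose by gene duplication and mineralizes bone, dentine and enamel. Most lie on chromosome 5, at chr5:104435118-104441050 for Spp1, chr5:104202613-104214102 for Dmp1 and chr5:88455991-88468531 for Ambn, while Amelx lies on the X chromosome (annotation release GENCODE M21, GRCm38). Among family members with a mean of at least 10 FPKM, Amelx and Ambn ranged over 4-fold between the controls, and Spp1, Ibsp and Dmp1 over 2-fold. Mmp13 and Col10a1, outside the family, also ranged over 4-fold. The 100 bases before the start of these genes other than Ibsp are shown, 5′ to 3′ on the strand of the gene. They are as listed by RefSeq for GRCm38.p6. Spp1 is shown at the 1st and Dmp1 at the 2nd of their 2 starts. Capitals mark TATAAA or its reverse complement TTTATA, and CCAAT or its reverse complement ATTGG.
Spp1 (plus strand, chr5:104435011-104435110): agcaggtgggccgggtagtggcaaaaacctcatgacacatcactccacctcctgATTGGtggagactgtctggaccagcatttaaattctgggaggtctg
Dmp1 (plus strand, chr5:104202517-104202616): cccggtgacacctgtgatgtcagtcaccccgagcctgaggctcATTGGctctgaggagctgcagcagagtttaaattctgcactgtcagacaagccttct
Ambn (plus strand, chr5:88455891-88455990): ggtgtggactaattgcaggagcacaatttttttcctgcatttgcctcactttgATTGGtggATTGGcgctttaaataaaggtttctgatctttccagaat
Amelx (minus strand, chrX:169187210-169187309): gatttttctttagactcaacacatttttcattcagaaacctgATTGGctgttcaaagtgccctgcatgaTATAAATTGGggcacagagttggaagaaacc
Mmp13 (plus strand, chr9:7272414-7272513): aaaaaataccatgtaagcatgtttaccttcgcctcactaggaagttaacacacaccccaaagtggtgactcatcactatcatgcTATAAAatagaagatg
Col10a1 (plus strand, chr10:34389881-34389980): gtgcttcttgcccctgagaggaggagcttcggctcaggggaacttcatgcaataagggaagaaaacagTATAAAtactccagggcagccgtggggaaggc
All matched family members, 9 of 9, held CCAAT on either strand in this window, as did 21.6% of the 27025 genes of the table. Dspp was the member without an entry. The motif was chosen after the sequences were seen. In Spp1 and Dmp1 it stood before 1 of the 2 starts. Mmp13 and Col10a1 held TATAAA and no CCAAT, and Amelx and Ibsp held both motifs. In Amelx the letters of TATAAA and ATTGG overlap. TATAAA stood before 10 of the 69 matched genes among the 100 highest (14.5%), before 6.38% of all ranked genes with an entry and before 3.68% of those at 10 FPKM or more. These are matches of letters and not sites of binding.

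Enamel genes were found in control 1. Amelx (amelogenin) at 431, 15.8 and 4.35 FPKM and Ambn (ameloblastin) at 159, 3.37 and 4.71 FPKM were the only 2 of 8 tooth genes with a mean above 10 FPKM, and control 1 alone set those means. Odam read 11.6, 3.18 and 0.791 FPKM and Enam read 5.27, 0.265 and 0.0990 FPKM, again highest in control 1. The whole list summed to 617, 26.5 and 12.8 FPKM, a 48.1-fold range. In control 2 the 15.8 FPKM of Amelx lay above the background level of that library and Ambn did not. Dspp, the dentine gene of odontoblasts, was at 0.413 ± 0.359 FPKM. Amelx and Ambn are products of ameloblasts in the tooth.

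Among the lists of neighbouring tissues, skeletal muscle had the highest summed level. Of 30 muscle genes, 26 reached 10 FPKM, with a median of 63.3 FPKM, and the list summed to 9719, 5690.1 and 13853 FPKM (fibrous list: 11495, 11220.0 and 14901 FPKM). Tnni2 (troponin I of fast fibres) read 829, 432 and 1313 FPKM. Mylpf, a light chain of fast myosin, read 779.7, 434 and 1284 FPKM, and Ckm, muscle creatine kinase, read 446, 239.6 and 519 FPKM. Control 2 was the lowest library for all 26 genes above background, against 37.9% of all genes at that level, and 21 of the 26 had the order of control 3 over control 1 over control 2. That order held for 26.4% of all genes at this level, and after scaling to equal sums for 16.9% of them and 18 of the 26 muscle genes. The range was at least 2-fold for 16 of the 26, against 11.2% of all genes at that level.

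Fast-fibre and perinatal forms led the muscle genes. Among myosin heavy chains, the perinatal Myh8 was highest at 54.8, 49.2 and 123 FPKM. The fast adult chains Myh1 (51.8, 30.1 and 49.6 FPKM) and Myh2 (18.7 ± 8.81 FPKM) came next. The embryonic Myh3 read 10.7, 2.54 and 18.0 FPKM, Myh4 read 3.17 ± 1.41 FPKM, and Myh7 of slow fibres and heart, 2.27 ± 0.423 FPKM, was within background. Myh1 shares 27.4% of its 30-base stretches with Myh2 and 17.4% with Myh8, so these levels are uncertain. The fast troponin Tnni2 stood 22.5, 26.9 and 29.8 times above the slow Tnni1 (32.3 ± 14.6 FPKM). Other slow or cardiac members, Tnnt1 (23.7 ± 16.3 FPKM), Myl2 (16.4 ± 7.13 FPKM) and Tnnc1 (10.7 ± 5.16 FPKM), were low beside Tnnt3 (655 ± 251 FPKM) and Tnnc2. Actc1, the actin of heart and of immature skeletal muscle, read 71.2, 58.7 and 84.9 FPKM. Myl4, the light chain of embryonic muscle and atrium, read 17.5, 38.4 and 58.9 FPKM. Acta1 shares no 30-base stretch with Actc1 or Acta2.

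Tendon genes were present beside muscle. Tnmd (tenomodulin), a gene of tendon and ligament cells, read 68.5, 42.6 and 128 FPKM, and was lowest in control 2 and highest in control 3. Scx (scleraxis), the factor of tendon and enthesis progenitors, read 21.7, 21.9 and 33.8 FPKM. Of 13 members of the list 12 reached 10 FPKM, with a median of 25.8 FPKM, but Col1a1, Fmod and Tnc (tenascin C, 159.7 ± 22.3 FPKM) are shared with the fibrous layer. Kera (keratocan) read 18.8, 5.23 and 26.1 FPKM and Chodl 12.6, 6.03 and 19.4 FPKM, in the order of the muscle genes.

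Of 15 adipocyte genes 3 reached 10 FPKM, a smaller share than the 29.9% of all genes. Fabp4, the fatty acid carrier of fat cells and capillaries, read 112, 61.5 and 291 FPKM. Adiponectin (Adipoq) read 0.679, 1.37 and 10.2 FPKM and was above the background of its library only in control 3. Cfd (adipsin) and Retn (resistin) were listed at 0 in controls 1 and 2 and read 5.84 and 5.59 FPKM in control 3. Lpl, lipoprotein lipase of fat and muscle, read 31.5, 32.5 and 43.4 FPKM.

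Genes of blood vessels and their wall cells were mostly at low levels. Of 21 endothelial genes 7 reached 10 FPKM, close to the 29.9% of all genes, and the median of the list was 7.03 FPKM. Plvap, of fenestrated capillaries, read 23.9, 27.9 and 39.9 FPKM, and Emcn (endomucin) read 15.0, 8.38 and 32.5 FPKM. Pecam1 (CD31) read 10.1, 10.3 and 22.0 FPKM. Control 3 was highest in these 3 genes and in 5 of the 7, against 51.9% of all genes at that level. With 7 genes, this count is not read as a trait of the list. Esam (29.3 ± 7.89 FPKM), Egfl7 (27.3 ± 9.04 FPKM) and Sox18 (21.4 ± 1.07 FPKM) were the other leading members. Of 7 lymphatic genes only Pdpn reached 10 FPKM, and Lyve1 (3.90 ± 1.96 FPKM) and Prox1 (3.08 ± 1.10 FPKM) were within background. Acta2, the actin of smooth muscle and myofibroblasts, read 119.8, 121 and 128 FPKM and was nearly the same in all 3. Of the 13 pericyte and smooth muscle genes 8 reached 10 FPKM, among them Cspg4 (NG2, 27.3 ± 5.24 FPKM) and Rgs5 (18.4 ± 4.96 FPKM). Myh11, the myosin of mature smooth muscle, was at 2.94 ± 0.935 FPKM.

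Cells of marrow and immunity gave little signal apart from red cells. Of 17 macrophage genes 5 reached 10 FPKM, close to the 29.9% of all genes. They were Lyz2 (57.4, 28.9 and 63.4 FPKM), Tyrobp (62.2, 41.1 and 42.3 FPKM), Cd68 (17.2, 52.8 and 21.4 FPKM), C1qc (16.2 ± 2.69 FPKM) and C1qb (13.6 ± 3.69 FPKM). Cd68, which osteoclasts also carry, was highest in control 2, the library with the most Ctsk, Acp5 and Mmp9. The neutrophil list had 2 of 15 above background, S100a8 (56.7, 11.4 and 31.2 FPKM) and S100a9 (28.9, 13.4 and 15.0 FPKM), both highest in control 1. Of 16 lymphocyte genes 1 reached the mark, Ebf1 (10.2 ± 1.12 FPKM), which marrow stroma and fat cells express too, and of 8 mast cell genes none did. Among T cell genes, Cd3g, Cd3d and Cd3e had means under 2.4 FPKM.

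Globins varied widely. Hba-a2 read 1987, 408 and 3318 FPKM and Hba-a1 read 51.9, 186 and 3.92 FPKM. Of its 30-base stretches Hba-a2 shares 92.8% with Hba-a1, so only their sum is read: 2039, 594 and 3322 FPKM. The beta globin symbols Hbb-bs (822, 448 and 2731 FPKM), Hbb-b2 (765, 206 and 1104 FPKM) and Hbb-b1 (779, 14.1 and 3.34 FPKM) summed to 2367, 668 and 3838 FPKM. Both sums were highest in control 3 and lowest in control 2, with ranges of 5.59-fold and 5.75-fold. By the median member in place of the sum, the log2 ratio of control 3 to control 2 turned to -0.25 for the erythroid list and -4.48 for the globins. In both libraries the globin median fell beside Hba-a1, whose share is uncertain, so the -4.48 is not read as a reversal. Hbb-b1 was high in control 1 alone, and as a near copy within a gene family its share is uncertain. The embryonic globins Hba-x and Hbb-bh1 were listed at 0 in every control, and Hbb-y read 1.69, 8.52 and 5.09 FPKM. Alas2, the first enzyme of heme synthesis in red cell precursors, read 69.6, 33.6 and 56.3 FPKM. Klf1, the factor of red cell precursors, read 7.34, 0.528 and 1.97 FPKM, and Slc4a1 read 17.9, 3.06 and 3.37 FPKM. These precursor genes were highest in control 1, while the globins were highest in control 3.

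Nerve and epithelium were close to absent at this background. Of 14 Schwann cell genes Pmp22 (191 ± 28.9 FPKM), which fibroblasts also express, and Cnp (14.8 ± 2.76 FPKM) reached 10 FPKM, while Sox10 (0.418 ± 0.141 FPKM) did not. None of 12 neuronal genes did, the highest being Tubb3 at 9.60 ± 2.92 FPKM. Of 18 genes of oral epithelium, Krtdap alone did (47.7, 19.8 and 52.7 FPKM), with Krt5 at 1.02 ± 1.55 and Krt14 at 0.642 ± 0.737 FPKM. None of 14 salivary genes reached the mark, and their highest mean was 4.30 FPKM (Prr27). Tyr, the pigment enzyme tyrosinase, read 63.8, 64.6 and 55.6 FPKM, while the pigment genes Dct (0.453 ± 0.392 FPKM) and Mlana (listed at 0) did not accompany it.

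**Figure D3:**
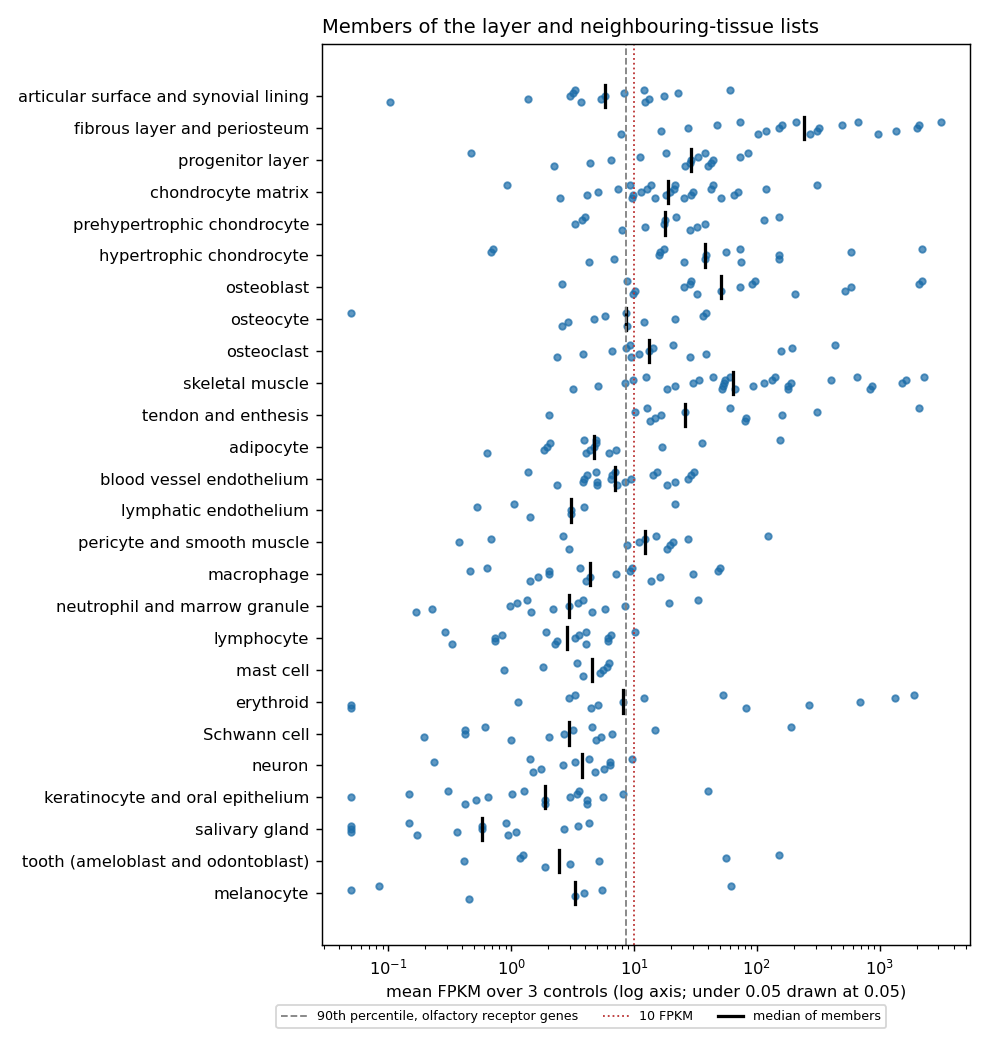
Each dot is 1 gene of a zone or neighbouring-tissue list, placed by its mean FPKM over the 3 controls on a log axis, black bars are list medians, the dashed line is the highest background level (8.56 FPKM) and the dotted line is 10 FPKM. The fibrous, muscle and osteoblast lists have medians of 240.4, 63.3 and 51.0 FPKM, while the nerve, epithelial, salivary and lymphocyte lists lie mostly left of both lines.

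Transcription factors of the skeleton and jaw were listed as 95 genes, of which 39 reached 10 FPKM, with a median of 7.84 FPKM. The highest were the Id genes, which block basic helix-loop-helix factors and respond to BMP signals: Id3 read 289, 334 and 218 FPKM, Id2 read 133, 177 and 164 FPKM and Id1 read 53.7, 42.4 and 49.7 FPKM. Atf4 (75.8 ± 15.8 FPKM) and Creb3l1 (45.5 ± 3.49 FPKM), factors of the secretory stress response in bone-forming cells, and Snai2 (63.2 ± 2.53 FPKM) followed. Sox9, Prrx1 and Mef2c completed the 10 highest together with Barx1, a homeobox gene of jaw mesenchyme, at 38.0, 27.9 and 45.8 FPKM. Hox genes pattern the body behind the jaw, and none of 39 reached 10 FPKM. The highest Hox mean was 7.51 FPKM (Hoxa9), within background, and 9 Hox genes were listed at 0 in every control.

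Secreted signals were led by the growth factor Igf2 (236, 194 and 381 FPKM). Binding proteins and matrix-bound modulators followed: Igfbp7 (193, 188 and 311 FPKM), Fstl1 (218 ± 67.8 FPKM), pleiotrophin (Ptn, 204 ± 56.3 FPKM) and Igfbp4 (129.5, 127 and 235 FPKM). Control 3 was highest in each of these. Ctgf (83.5 ± 5.05 FPKM), midkine (Mdk, 80.9 ± 25.0 FPKM), Bmp1, the procollagen-cleaving protease (79.9 ± 6.38 FPKM), and Sfrp2 (31.0, 40.2 and 107 FPKM) came next. Wif1, a secreted Wnt inhibitor, was steady at 75.9, 79.2 and 78.4 FPKM. In all 37 of 83 members reached 10 FPKM, with a median of 9.03 FPKM. Control 3 was highest in 27 of the 37 as deposited, against 51.9% of all genes at that level.

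Among 85 receptors and co-receptors 38 reached 10 FPKM, with a median of 9.23 FPKM. After Pth1r came the integrin chain Itgb1 (109.6 ± 10.1 FPKM) and the heparan sulfate carriers Gpc3 (109 ± 22.0 FPKM), Gpc1 (103 ± 14.8 FPKM), Sdc2 (86.5 ± 10.2 FPKM) and Sdc4 (64.0 ± 10.3 FPKM). Cd44, the hyaluronan receptor, read 60.6, 50.4 and 56.3 FPKM. Fgfr2 (37.3, 57.2 and 64.8 FPKM) and Fgfr1 (32.4, 38.6 and 33.2 FPKM) were higher than Fgfr3 in every control. Of the 38 receptors 1 varied at least 2-fold, against 11.2% of all genes at that level.

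Proteases and their inhibitors gave 23 of 45 genes at 10 FPKM or more, with a median of 11.6 FPKM. The most abundant were Serpinf1 (PEDF, an inhibitor of vessel growth) at 483, 493 and 591 FPKM, Ctsk, and Serpine2 at 383, 441 and 327 FPKM. Mmp2 (295, 287 and 441 FPKM), its activator Mmp14 (161, 167 and 239.8 FPKM) and their inhibitor Timp2 (181, 207 and 246 FPKM) were highest in control 3. Mmp9 and Mmp13, at the same mean level as Mmp14 within their spread, were lowest there. Timp1 (151, 151 and 149.9 FPKM) and Ctsd (172, 172 and 175 FPKM) were almost equal in the 3 libraries. Cst3 (312 ± 35.8 FPKM) and Htra1 (163 ± 17.7 FPKM) completed the leading members.

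Genes of collagen folding and secretion were nearly all active. Of 39 members 34 reached 10 FPKM, with a median of 67.1 FPKM, and 1 of the 34 varied at least 2-fold, against the same 11.2%. P4hb, shared by prolyl hydroxylase and disulfide isomerase, read 367, 471 and 479.8 FPKM. Serpinh1, the collagen chaperone HSP47, read 306, 293 and 403 FPKM. Hspa5 (278 ± 34.3 FPKM), Pcolce (238 ± 38.6 FPKM), Hsp90b1 (235 ± 24.3 FPKM) and Calr (232 ± 41.7 FPKM) were the next highest.

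Glycolysis and hypoxia genes were abundant as well: 25 of 30 reached 10 FPKM, with a median of 37.5 FPKM and 1 of the 25 that varied at least 2-fold (all genes: 11.2%). Ldha read 1246, 1386 and 1495 FPKM, Gapdh read 847, 716 and 967 FPKM and Aldoa, which muscle shares, read 795, 627 and 1054 FPKM. Mif (740.2 ± 112 FPKM), Pkm (561 ± 65.0 FPKM) and Pgam1 (366 ± 29.5 FPKM) followed. Car9, a carbonic anhydrase under hypoxia control, read 44.9, 64.4 and 55.8 FPKM. Cartilage without vessels is known to live on glycolysis.

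Cell division was active in all controls. Of 36 cell cycle genes 30 reached 10 FPKM and none of the 30 varied 2-fold, against 11.2% of all genes at that level. Tyms, the enzyme of thymidylate synthesis, read 202, 204 and 154 FPKM, Pcna read 96.6, 111 and 124 FPKM, and Ccnb1, the mitotic cyclin, read 65.3, 80.4 and 55.0 FPKM. Birc5 (77.1 ± 11.7 FPKM), Rrm2 (64.9 ± 9.77 FPKM) and Ube2c (57.7, 45.5 and 76.6 FPKM) were next. Exons of Ube2c overlap those of Tnnc2 on the opposite strand, and Ube2c followed the muscle order of libraries. Within the overlap its reads cannot be told from those of Tnnc2. Immediate early genes respond within minutes to handling or growth signals. Of 22 such genes 14 reached 10 FPKM, against 29.9% of all genes, with a median of 12.6 FPKM. The highest was Cyr61 at 40.5, 45.0 and 28.1 FPKM, and Fos read 15.9, 25.2 and 15.8 FPKM. Jund (28.8 ± 7.03 FPKM), Klf6 (26.7 ± 1.71 FPKM), Dusp1 (25.3 ± 5.54 FPKM) and Klf4 (20.1 ± 3.71 FPKM) were like it in level.

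Growth genes that are imprinted or decline after birth were high. Of 21 listed members 15 reached 10 FPKM, with a median of 68.4 FPKM. Gnas read 494, 444 and 757 FPKM, the noncoding Meg3 read 443, 286 and 728 FPKM, and H19, the noncoding neighbour of Igf2, read 429, 252 and 741 FPKM. Mest read 266, 291 and 482 FPKM, and its exons overlap those of Copg2 on the opposite strand (102, 89.6 and 176 FPKM). Cdkn1c, a growth-restraining inhibitor of cell division, read 152, 130.1 and 229 FPKM. The list summed to 2477, 2034 and 3967 FPKM, and 10 of the 15 genes had the order of the muscle genes, with control 3 highest and control 2 lowest, against 26.4% of all genes at that level. The age of the mice is not given, and muscle expresses H19, Igf2 and Meg3 too, so the tissue that held this RNA cannot be told apart.

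Among collagens, those of fibrous tissue were above those of cartilage. Of 28 collagen genes 23 reached 10 FPKM. After types I and III came Col6a1 (343 ± 69.2 FPKM), Col5a1 (273 ± 64.1 FPKM), Col6a2 (219 ± 47.8 FPKM), Col12a1 (208 ± 13.7 FPKM) and Col5a2 (151 ± 17.7 FPKM), all above Col2a1 (118 ± 36.8 FPKM). Col5a1 and Col5a2 exceeded Col2a1 in every library. The chains of type I collagen were near parity, with Col1a1 at 1.14, 0.969 and 1.02 times Col1a2. Col10a1 was the 1 collagen above background that varied at least 2-fold. Col22a1 (9.80 ± 3.63 FPKM) and Col24a1 (9.33 ± 1.06 FPKM) were the highest of those below 10 FPKM, followed by Col18a1, Col15a1 and Col14a1 at 8.25, 7.93 and 7.82 FPKM.

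Of 16 listed small leucine-rich proteoglycans, which regulate fibril width and bind growth factors, 11 reached 10 FPKM. Biglycan (Bgn) read 673, 660.5 and 815 FPKM, asporin (Aspn) read 419, 515 and 558 FPKM and lumican (Lum) read 233, 317 and 418 FPKM. Control 3 was highest in these 3, as in Dcn and Fmod. In Omd, control 3 was lowest, as it was in Ecm2. Ogn (osteoglycin) read 45.6, 54.7 and 119.9 FPKM. Kera, Podnl1 (15.8 ± 1.79 FPKM) and Ecm2 (14.6, 20.3 and 9.41 FPKM) were low, and Chad, a cartilage member, lay at 9.74 ± 2.90 FPKM. Epyc (0.922 ± 0.798 FPKM), Chadl (1.99 ± 0.615 FPKM), Podn (2.55 ± 1.01 FPKM) and Tsku (5.81 ± 1.58 FPKM) were within background.

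The spread between the controls was moderate for most genes. Spread was measured as the highest minus the lowest log2(FPKM + 1) of a gene, a scale that understates the change of low genes. Of the 6902 genes at 10 FPKM or more, 770 (11.2%) had a range of at least 2-fold and 87 (1.26%) of at least 4-fold. The median coefficient of variation fell from 43.3% at 1 to 5 FPKM to 20.8% at 10 to 20 FPKM and 13.7% at 500 FPKM or more. The library farthest from the middle value was control 1 for 165 of the 770 genes, control 2 for 291 and control 3 for 314. Control 3 was the higher one in 195 of its 314, whereas control 2 was the lower one in 218 of its 291. Across genes, log2 levels of the 3 pairs correlated with Pearson's r of 0.923 to 0.931 over 23060 genes, which share background and length and are not independent.

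**Figure D4:**
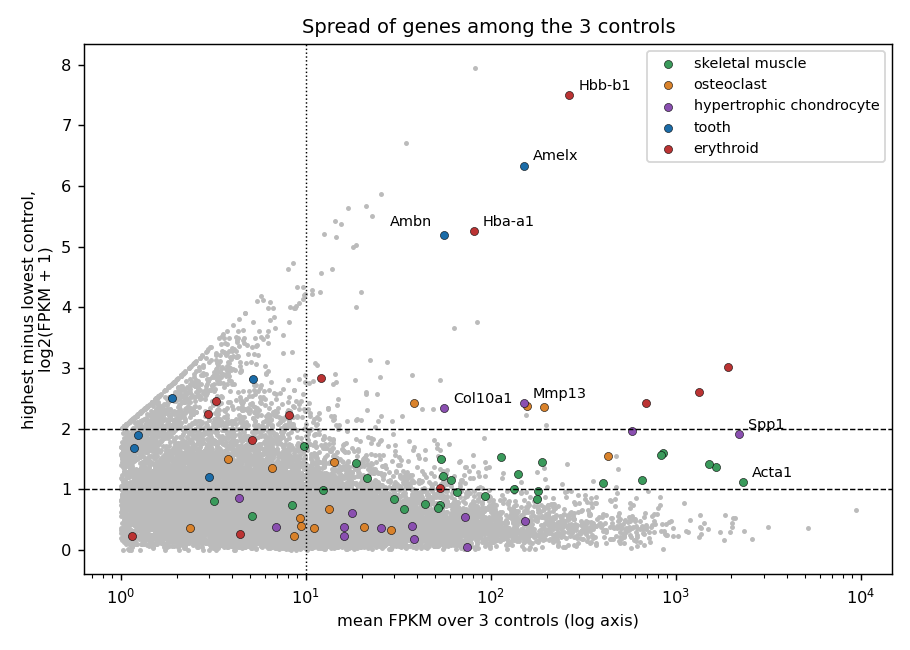
Each point is a gene with a mean of at least 1 FPKM, placed by its mean (log axis) and by its highest minus lowest log2(FPKM + 1) among the 3 controls, with dashed lines at 2-fold and 4-fold, a dotted line at 10 FPKM and 5 lists in colour. Most genes above 10 FPKM lie under the 2-fold line, while Amelx, Ambn, Hbb-b1, Hba-a1, Mmp13 and Col10a1 lie above the 4-fold line.

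The widest ranges among named genes with a mean of at least 20 FPKM differed in kind between libraries. Control 1 stood apart in Hbb-b1, Amelx, Ambn and Car2, all higher there, and in Defb34, Toporsos, Lst1 and Ccdc58, all lower there. Control 2 stood apart in Hba-a2, Hbb-b2 and Sln, the calcium pump regulator of muscle (75.8, 11.2 and 164 FPKM), and in Ndufs5, Rpl30 and Atcayos, each lower there. Bc1, a noncoding RNA of neurons, was listed at 0 in controls 1 and 3 and read 104 FPKM in control 2, and Mt3 read 14.8, 61.6 and 6.34 FPKM. Control 3 stood apart in Mmp13, Acp5, Col10a1, Amd1, Hba-a1 and Defb44-ps, lower there, and in Hbb-bs and Fabp4, higher there. Near copies in the genome are known for Rpl30, Amd1 and the globins, so their values are uncertain.

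The summed levels of the muscle list and of 3 lists of the bone front ran in opposite orders across the 3 libraries. From control 2 to control 1 to control 3 the muscle list summed to 5690.1, 9719 and 13853 FPKM, while the osteoclast list summed to 1482, 874 and 483 FPKM and the hypertrophic list to 5168, 3534 and 1645 FPKM. The osteoblast sum, most of it Spp1 and Col1a1, was 7284, 6189 and 4694 FPKM. These 4 orders held after scaling to equal sums and to equal medians. Spp1 and Ibsp are in both the hypertrophic and osteoblast lists. Among members above background, 5 of 9 osteoclast, 6 of 13 hypertrophic and 5 of 14 osteoblast genes had control 2 over 1 over 3 (all genes: 12.5%). After scaling to equal sums it was 6 in each list (all genes: 21%). The osteocyte sum fell from control 1 to control 2 to control 3, and Bglap, Bglap2 and Dmp1 were lowest in control 2. The osteoblast order rests on a few abundant genes: by the median member, control 3 was 0.61 log2 units above control 2. With 3 libraries of one kind, no test of this opposition was made. The fibrous, chondrocyte and cell cycle lists varied far less, with ranges of 1.33-fold, 1.27-fold and 1.08-fold in their sums. The order of the cell cycle, prehypertrophic, macrophage, neutrophil, pericyte, collagen folding, transcription factor, receptor and protease lists changed with at least 1 of the scalings and is not read.

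Some genes of the bone front kept a fixed ratio while their levels moved. These ratios were chosen after their values were seen. Mmp9 to Acp5 was 0.776, 0.820 and 0.804, although each gene ranged over 5-fold. Spp1 to Ibsp was 4.08, 3.62 and 3.78. Spp1 to Col1a1, in contrast, was 1.05, 2.03 and 0.375, and Acta1 to Col1a1 was 1.14, 0.828 and 1.25. The part that the cut of the tissue, the age or the sex of the mice had in these differences was not tested.

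**Figure D5:**
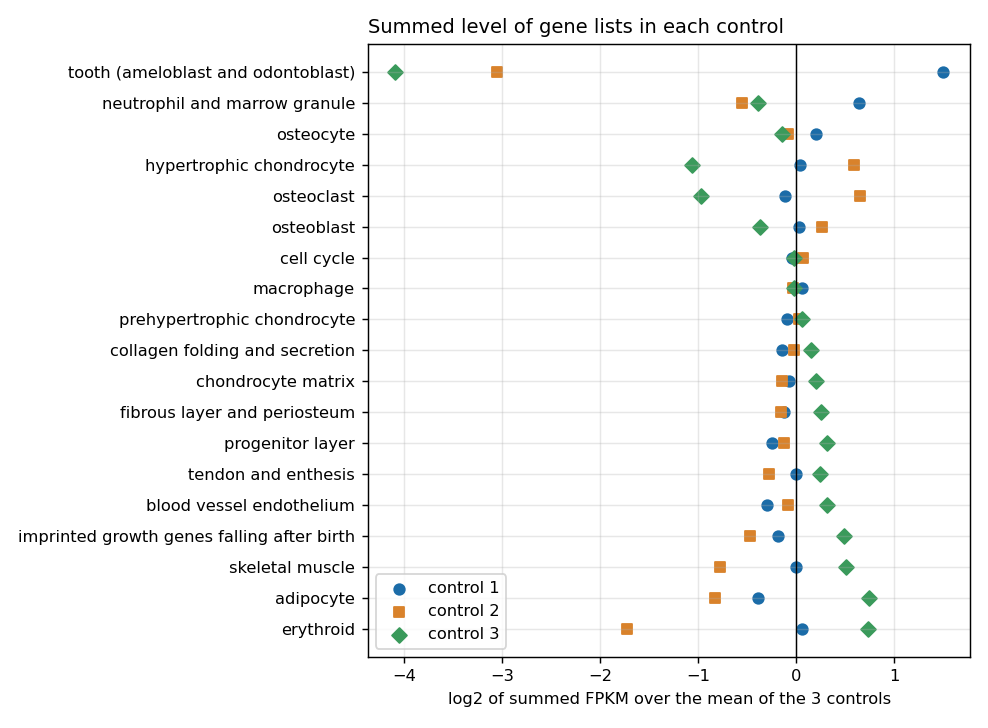
Each row is a gene list, the horizontal axis is log2 of its summed FPKM in a library over the mean of the 3 sums, and symbols are the 3 controls. Control 3 lies left and control 2 right for the hypertrophic, osteoclast and osteoblast lists, the reverse holds for the muscle, adipocyte and erythroid lists (by the median member the erythroid log2 ratio of control 3 to control 2 is -0.25), and control 1 lies far right for the tooth list.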

How the data were processed

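RNA from 3 control samples of condylar cartilage was sequenced after SMART-Seq HT cDNA synthesis and Nextera library construction, per the labels' protocols. The deposited tables give 1 value per gene symbol, made by the authors as FPKM. This unit was inferred from the values and from Cufflinks, since no header names it. TopHat2 2.0.13, Bowtie2 2.2.3, SAMtools 0.1.19, Cufflinks 2.2.1 are named, with the build mm10, per the submitters' processing notes. The sources used here give neither annotation nor settings.

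Values were used as deposited, with Python 3.11.15 and pandas 2.3.3, and 1286 small RNA symbols were left out of ranks and sums. Means, SDs, counts at 10 FPKM, list sums and ranges of log2(FPKM + 1) were computed, and no test between groups was possible within 1 group. The procedure was tested on simulated data. Named were the 30 highest genes, the 6 layer markers, up to 6 leading members of each of 40 lists (the 10 highest for regulators, all members of isoform lists) and the 8 widest ranges per library. Other named genes were picked with their values in view. The members and lists were chosen with earlier results of these data known. Alternatives were other scalings, minimums and pseudocounts, medians, and leaving out each library. Relative depth came from the commonest ratio of low values. Exon overlaps and shared 30-base stretches came from GENCODE M21.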

Additional observations from a re-analysis of the deposited data

How the results depend on the processing

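The count of 6902 genes at 10 FPKM or more became 11051 at a minimum of 5 FPKM and 3705 at 20 FPKM. The 770 genes with a 2-fold range became 4806 at a minimum of 1 FPKM, 97 at 50 FPKM and 5937 with no filter, and 285 to 479 without 1 library. The 87 genes with a 4-fold range became 1028 at 1 FPKM and with no filter, 17 at 50 FPKM, and 33 to 50 without 1 library, where the range covers 2 libraries only. Other scalings, a pseudocount of 0.1 and leaving out the members of 7 lists, which was chosen after seeing the data, gave 689 to 902 and 73 to 104 genes. The share of the 100 highest genes was 33.3% with small RNA symbols kept, against 24.0%. Leaving out mitochondrially encoded genes could not be run, as 0 of 13 are listed. Of the 50 highest genes, 44 to 49 remained without 1 library. The log2 ratio of control 3 to control 2 was also taken from medians of members in place of sums. It turned to -0.25 for the erythroid list (2.46 by sums) and to -4.48 for the globins (2.50 by sums). The globin median lay between Hba-a1 and Hbb-b1 in control 2 and between Hbb-y and Hba-a1 in control 3. The split of Hba-a1 and Hbb-b1 from their near copies is uncertain, so the globin turn is not read. The cause of the erythroid turn was not tested. For the hypertrophic list this ratio from medians was -0.52, for the osteoclast list -0.47 and for the osteoblast list 0.61, as a few abundant genes set those sums. No paired analysis was possible because no result comes from a test between groups. Absolute depth is unknown, so no counting error can be given.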

Other observations

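Receptor genes of the nose and of sensory neurons reached high values in all controls, although most of their families lay within background. Vmn1r58, a vomeronasal receptor, read 742, 740.0 and 581 FPKM, and Olfr613 read 726, 696 and 549 FPKM. Both were picked with their values in view. Of the 1120 olfactory receptor genes 65 had a mean of at least 10 FPKM. All 1120 together held 1.35%, 1.30% and 0.905% of the summed FPKM. This share was lowest in control 3. Small RNA symbols, left out of the ranks, held 22.8%, 24.7% and 19.5% of the sum of all symbols and were lowest in control 3 as well.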
